A study of Mus musculus with 28 samples.

Results

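Hand1, Hand2, Cdx2, Gata2, Gata3, Tfap2a, Tfap2c and Ascl2 are 8 transcription factor genes, of 37620 genes in the count table, that are known as regulators of the trophoblast or are the closest relatives of such regulators. They were chosen by name, with the K36M against WT differences at d2 to d8 of fibroblast reprogramming already known. Those differences are therefore described here with their errors and carry no p-value, while levels in starting fibroblasts, in fibroblasts without the factors and in established iPSCs did not enter the choice and were tested.

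The libraries were made from poly(A) RNA of mouse embryonic fibroblasts (MEFs) and of cells on the way to induced pluripotent stem cells (iPSCs), and the study asked how methylation of H3K36, a lysine in the tail of histone H3, bears on cell identity. The K36M histone carries a methionine at that lysine and is known to block its methylation. Both WT and K36M cells were sampled as MEFs (d0), as intermediates (d2, d4, d6 and d8), as iPSCs after passaging, and as MEFs to which OKSM had not been given (labelled noOKSM), with 2 libraries in each of the 14 groups. OKSM stands for the reprogramming factors Oct4, Klf4, Sox2 and Myc. The medium was DMEM with serum for MEFs, AGi for intermediates and S/L for iPSCs, so stage and medium cannot be told apart. The WT libraries carry H3.3 in their names, which the labels do not explain further. The labels also do not say which MEF line or promoter supplied the K36M histone, nor which medium the noOKSM cells had. The noOKSM libraries carry another library series name than all other libraries, so a comparison of noOKSM with d0 cannot be told apart from that series.

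The trophoblast is the first lineage to separate from the embryo proper and forms the placenta. Cdx2 and Gata3 act early in its specification, Tfap2c works with them to establish and keep trophoblast stem cells, Ascl2 (Mash2) is needed for the ectoplacental cone and spongiotrophoblast, and Hand1 drives the formation of trophoblast giant cells. The close relatives have other main uses in the embryo, Hand2 in heart, limb and sympathetic neurons, Gata2 in blood progenitors as well as trophoblast, and Tfap2a in surface ectoderm and neural crest. Tfap2c is also expressed in pluripotent cells and germ cells, and none of these genes is specific to the placenta.

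The promoters of 6 of the 8 genes were found in a RefSeq promoter table (GRCm38.p6), with a pair of start sites each for Gata2 and Tfap2a. The 250 bases before the start are shown for 3 genes: Gata3 and Cdx2, which were higher in K36M intermediates, and Hand2, which was lower. Capitals mark matches, on either strand, to the AP-2 motif GCCNNNGGC, the GATA motifs AGATAA and TGATAA, and the E-box motifs CATCTG and CAGCTG, known sites of the AP-2, GATA and basic helix-loop-helix families. The Gata3 bases lie at chr2:9878601-9878850 on the minus strand, those of Cdx2 at chr5:147307250-147307499 on the minus strand and those of Hand2 at chr8:57320733-57320982 on the plus strand.
Gata3: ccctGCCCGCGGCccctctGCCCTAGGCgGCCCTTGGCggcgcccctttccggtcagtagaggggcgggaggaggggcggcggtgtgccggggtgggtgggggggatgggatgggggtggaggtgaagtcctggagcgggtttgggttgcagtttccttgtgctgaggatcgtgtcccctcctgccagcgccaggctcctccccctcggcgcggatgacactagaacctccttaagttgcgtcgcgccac
Cdx2: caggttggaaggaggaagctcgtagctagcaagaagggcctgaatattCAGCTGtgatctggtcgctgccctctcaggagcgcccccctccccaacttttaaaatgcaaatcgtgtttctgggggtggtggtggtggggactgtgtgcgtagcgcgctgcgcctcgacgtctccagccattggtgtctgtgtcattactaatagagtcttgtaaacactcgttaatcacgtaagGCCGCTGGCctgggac
Hand2: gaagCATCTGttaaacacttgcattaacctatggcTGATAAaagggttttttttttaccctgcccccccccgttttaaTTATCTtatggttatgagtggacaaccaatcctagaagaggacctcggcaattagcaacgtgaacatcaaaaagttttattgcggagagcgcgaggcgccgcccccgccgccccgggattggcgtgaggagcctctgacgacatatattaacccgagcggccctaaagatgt
Gata3 held 3 matches to the AP-2 motif, at -246, -231 and -221 from its start, and Cdx2 held 1 at -16 and the E-box CAGCTG at -202. Hand2 held no AP-2 match, but the GATA motif TGATAA at -215, the GATA motif AGATAA on the opposite strand at -172, and the E-box CATCTG at -246. Of the 32851 promoters in the table, 13.7% held the AP-2 motif, 9.99% AGATAA, 7.94% TGATAA, 14.4% CATCTG and 13.0% CAGCTG. Among the remaining promoters, the second Gata2 start held 1 AP-2 match at -222, and the first Gata2 start, both Tfap2a starts and Ascl2 held none of these letters in this window. All 8 promoters had more CpG than the median promoter, with 10 to 24 each against 6.0 in the table. The share of promoters with fewer CpG ran from 62.2% for both Tfap2a starts to 88.0% for the second Gata2 start. A match says only that these letters are present.

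Total gene counts ran from 17507521 to 35622279 per library. Replicates differed by more than sampling noise in every group. The chi-square per degree of freedom ran from 2.26 in K36M d0 to 60.2 in K36M d6, followed by K36M noOKSM (29.1), WT d0 (20.3) and WT d4 (17.9). Whether the replicates are separate cultures is not stated in the labels, and p-values therefore measure a spread between libraries that may be technical. In bulk RNA, fewer cells of a type and less RNA per cell cannot be told apart. Levels are given as CPM, the usual scale of counts relative to library size (here after TMM scaling), as mean ± SD of 2 libraries. A count of 0 in both libraries of WT d0 allows up to 0.0785 CPM (3 counts over the group), for counting error only. In counts over the 28 libraries, Cdx2 was the scarcest of the 8 with 198 and Hand1 had 386, while Tfap2c had 20354.

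In K36M intermediates from d4 to d8, Hand1, Cdx2, Gata3, Tfap2c and Ascl2 were higher than in WT, Hand2 and Tfap2a reached lower levels than in WT by d6, and Gata2 was lower at d2, d4 and d6. At d4, d6 and d8, both K36M libraries of Hand1, Cdx2, Gata3 and Ascl2 lay above all 14 WT libraries of any stage, which held for 8.68%, 12.9% and 10.1% of all tested genes. Both K36M libraries of Hand2 lay below all WT libraries at d6 and d8, as did those of 10.7% and 8.54% of all tested genes. The contrasts that chose the genes called 5, 6, 8 and 8 of the 8 genes from d2 to d8 in order, beside 20.1%, 52.9%, 70.9% and 60.6% of all genes. Over the 4 days jointly they called 8 of 8 beside 58.5%, and nothing is read from these counts. Hand1 and Cdx2 passed the filter on low counts through K36M libraries alone.

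**Figure D1:**
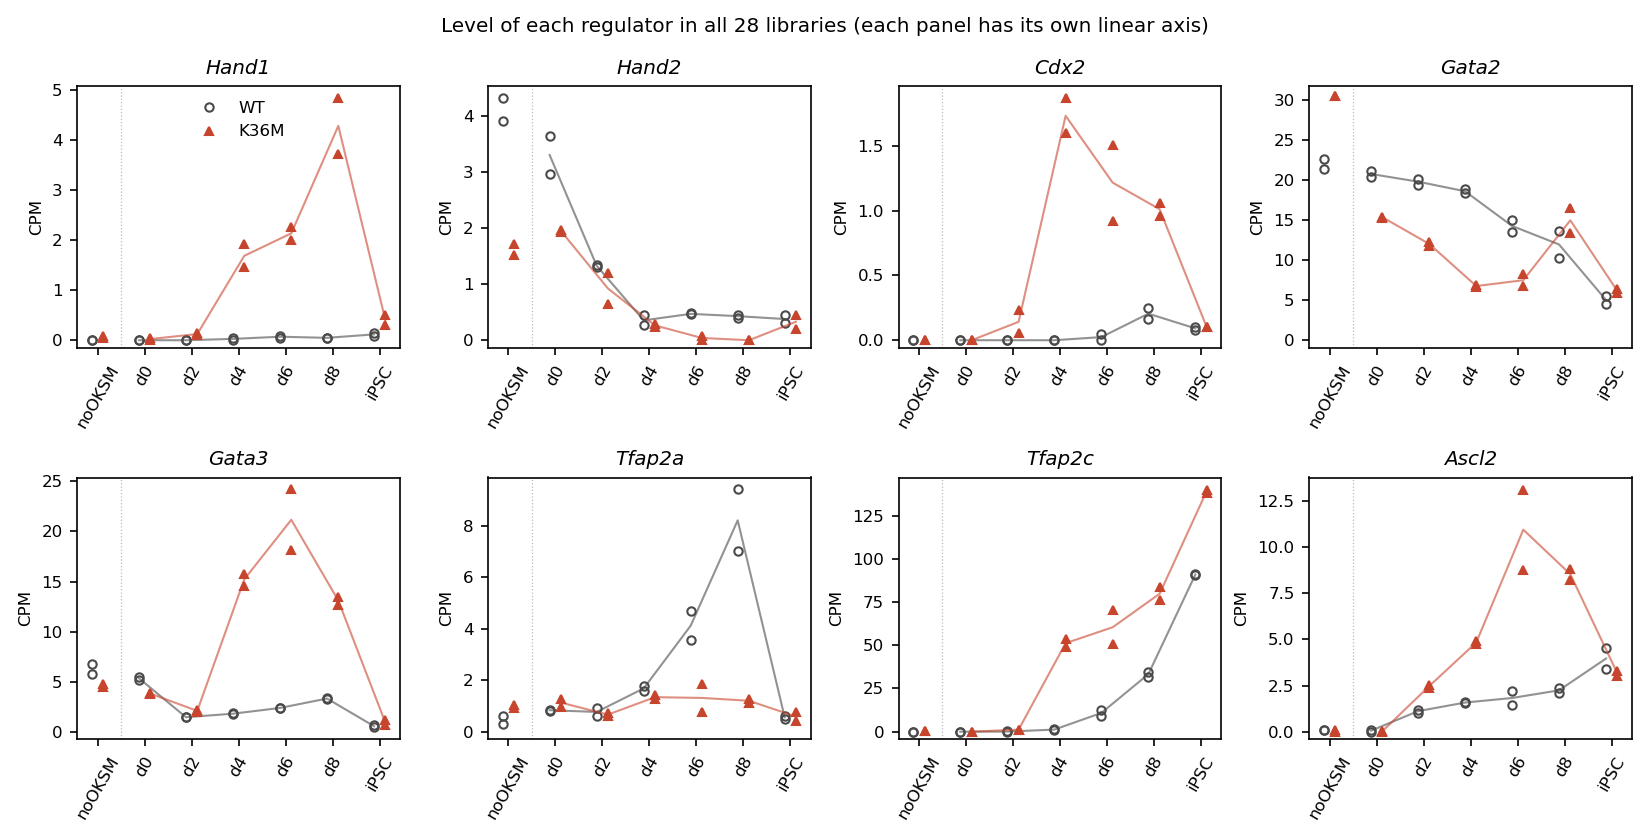
CPM (linear axis, its own scale in each panel) of the 8 genes in each of the 28 libraries, by stage, with WT as open circles, K36M as filled triangles, and lines through the means from d0 to iPSC. Hand1, Cdx2, Gata3 and Ascl2 triangles lie above all WT circles at d4 to d8, the highest Tfap2a values are the WT circles of d8 (7.01 and 9.43), and Tfap2c is highest in iPSCs of both genotypes.

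Hand1 (ENSMUSG00000037335, chr11:57642207-57646320 of mm9, minus strand, protein coding) was at or near 0 in WT cells at every stage and present in K36M intermediates. WT libraries held 0 counts at d0, d2 and noOKSM, 1 and 0 at d4. Later counts were 2 and 1 at d6, 1 and 2 at d8, and 3 and 2 as iPSCs. K36M libraries held 0 and 1 counts at d0, 3 and 2 at d2, 39 and 31 at d4. Values from d6 on were 51 and 50 at d6, 101 and 77 at d8, 6 and 10 as iPSCs, and 1 and 2 at noOKSM. The genotypes did not overlap from d2 to iPSC. In K36M the mean level was 1.69 ± 0.327 CPM at d4, 2.14 ± 0.183 at d6, 4.28 ± 0.791 at d8 and 0.407 ± 0.135 in iPSCs. The K36M to WT ratio was 84.7 at d4 (95% exact counting interval 14.7 to 3394), 30.2 at d6 (10.0 to 149) and 87.6 at d8 (29.5 to 429). At d2, with no WT count, K36M was at least 2.09-fold higher. Ordered by level, K36M d8, d6, d4 and iPSC stood apart from each other without overlap, and all groups below them overlapped their neighbours.

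Hand2 (ENSMUSG00000038193, chr8:59799780-59803314 of mm9, plus strand), the relative of Hand1 used in limb, heart and sympathetic neurons, had the opposite pattern: it was highest in MEFs of both genotypes and lowest in K36M at d6 and d8. WT libraries held 3.65 and 2.96 CPM at d0, 1.35 and 1.31 at d2, 0.265 and 0.444 at d4. From d6 on they held 0.459 and 0.481 at d6, 0.456 and 0.403 at d8 and 0.301 and 0.455 as iPSCs. K36M libraries held 1.93 and 1.96 CPM at d0, 0.651 and 1.20 at d2, 0.295 and 0.235 at d4. Later levels were 0 and 0.0803 at d6, 0 and 0 at d8, and 0.208 and 0.452 as iPSCs. The genotypes overlapped at d4 and in iPSCs and were apart at d6 and d8. Over both libraries Hand2 had 20 counts in WT and 2 in K36M at d6, 11.1-fold lower in K36M (95% exact counting interval 2.71 to 98.3). At d8 it had 26 and 0 counts, at least 5.87-fold lower. Over d2 to d8 its difference was -1.42 ± 0.469 (SE) on the log2 scale, and without the d6 libraries it was -1.05 and no longer past the threshold.

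Cdx2 (ENSMUSG00000029646, chr5:148112381-148118846 of mm9, minus strand), the homeobox factor that starts trophectoderm specification, was not detected in WT before d6. WT libraries held 0 counts at d0, d2, d4 and noOKSM, 0 and 1 at d6, 6 and 6 at d8, and 2 and 2 as iPSCs. K36M libraries held 0 counts at d0 and noOKSM, 5 and 1 at d2, 38 and 34 at d4. Values from d6 on were 34 and 23 at d6, 20 and 22 at d8, and 2 and 2 as iPSCs. The highest level was at d4, 1.73 ± 0.193 CPM, earlier than the highest level of Hand1. The K36M libraries of d4 lay above those of d6 (1.22 ± 0.415 CPM), which overlapped those of d8. K36M was at least 2.51-fold higher at d2 and at least 29.0-fold higher at d4. It was 51.2-fold higher at d6 (95% exact counting interval 8.82 to 2055), and higher by 2.33 ± 0.468 on the log2 scale at d8. In iPSCs of both genotypes 4 counts remained over the group.

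Ascl2 (ENSMUSG00000009248, chr7:150152727-150155169 of mm9, minus strand), a basic helix-loop-helix factor of the ectoplacental cone, was near 0 in MEFs of both genotypes and present from d2 on, at higher levels in K36M intermediates. WT libraries held 0.107 and 0 CPM at d0, 1.18 and 1.04 at d2, 1.54 and 1.62 at d4. From d6 on they held 2.21 and 1.44 at d6, 2.12 and 2.36 at d8 and 3.41 and 4.51 as iPSCs. K36M libraries held 0.0446 and 0 CPM at d0, 2.39 and 2.55 at d2, 4.92 and 4.74 at d4. Later levels were 13.1 and 8.75 at d6, 8.82 and 8.22 at d8 and 3.01 and 3.31 as iPSCs. Every K36M library exceeded both WT libraries from d2 to d8, and in iPSCs both K36M libraries were the lower. The log2 difference was 1.15 ± 0.305 (d2), 1.60 ± 0.263 (d4), 2.57 ± 0.245 (d6) and 1.92 ± 0.232 (d8). WT was thus highest in iPSCs at 3.96 ± 0.781 CPM and K36M at d6 at 10.9 ± 3.08 CPM, a value that overlapped its d8 level.

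Gata3 (ENSMUSG00000015619, chr2:9778705-9811661 of mm9, minus strand), an early trophoblast zinc finger factor, was present in MEFs of both genotypes, lower at d2, and many times higher in K36M than in WT from d4 to d8. WT libraries held 5.47 and 5.20 CPM at d0, 1.47 and 1.43 at d2, 1.86 and 1.74 at d4. Values from d6 on were 2.39 and 2.36 at d6, 3.4 and 3.22 at d8 and 0.651 and 0.455 as iPSCs. K36M libraries held 3.75 and 3.87 CPM at d0, 2.21 and 1.95 at d2, 14.6 and 15.8 at d4. From d6 on they held 24.2 and 18.1 at d6, 13.5 and 12.7 at d8 and 1.14 and 0.703 as iPSCs. K36M lay below WT at d0 and above it at every later stage of the course. The log2 difference was 0.53 ± 0.221 (d2), 3.08 ± 0.170 (d4), 3.15 ± 0.164 (d6) and 1.99 ± 0.153 (d8). Gata3 overlaps 3 other genes in the annotation, Gm13256 and 4930412O13Rik on the opposite strand and 9230102O04Rik on the same strand, which had 2, 85 and 7 counts in all libraries together. The strand setting of the counting is not given in the sources used here.

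Gata2 (ENSMUSG00000015053, chr6:88143885-88157024 of mm9, plus strand), which acts in blood progenitors and trophoblast, was detected in every library, and its genotype difference had opposite signs at d4 and d8. WT libraries held 21.1 and 20.4 CPM at d0, 19.4 and 20.1 at d2, 18.3 and 18.8 at d4. Later levels were 15.0 and 13.5 at d6, 13.6 and 10.3 at d8 and 4.51 and 5.51 as iPSCs. K36M libraries held 15.4 and 15.3 CPM at d0, 11.7 and 12.3 at d2, 6.89 and 6.62 at d4. Values from d6 on were 8.22 and 6.75 at d6, 16.5 and 13.4 at d8 and 5.86 and 6.42 as iPSCs. K36M was lower at d0 to d6 without overlap, reached its lowest level before the iPSC stage at d4, and overlapped WT at d8. The log2 difference was -0.72 ± 0.128 (d2), -1.46 ± 0.136 (d4), -0.93 ± 0.136 (d6) and 0.34 ± 0.128 (d8). The d8 value was 0.14 without WT d8 replicate 2 and 0.17 without K36M d8 replicate 1, both short of the threshold. Over d2 to d8 it was -0.71 ± 0.193, and -0.61 and short of the threshold without the d6 libraries.

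Tfap2c (ENSMUSG00000028640, chr2:172375093-172384122 of mm9, plus strand), the AP-2 factor shared by trophoblast, germ cells and pluripotent cells, was at or near 0 in MEFs and abundant in iPSCs of both genotypes, and was abundant at earlier stages in K36M. WT libraries held 0 CPM at d0, 0.163 and 0 at d2, 1.54 and 0.920 at d4. From d6 on they held 12.4 and 9.34 at d6, 34.8 and 31.8 at d8 and 91.2 and 90.7 as iPSCs. K36M libraries held 0.0446 and 0.0461 CPM at d0, 1.15 and 1.25 at d2, 53.4 and 49.0 at d4. Later levels were 70.1 and 50.7 at d6, 83.4 and 76.2 at d8, and a mean of 139 ± 0.941 CPM as iPSCs. At d4 both K36M libraries already exceeded both WT libraries of d8. The log2 difference narrowed from 5.45 ± 0.225 at d4 to 2.47 ± 0.170 at d6 and 1.26 ± 0.154 at d8.

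Tfap2a (ENSMUSG00000021359, chr13:40811044-40829192 of mm9, minus strand), the AP-2 factor of surface ectoderm and neural crest, was higher at d6 and d8 than at d0 in WT, with no such level in K36M. WT libraries held 0.859 and 0.816 CPM at d0, 0.613 and 0.926 at d2, 1.59 and 1.78 at d4. Values from d6 on were 4.69 and 3.56 at d6, 7.01 and 9.43 at d8 and 0.501 and 0.621 as iPSCs. K36M libraries held 1.29 and 0.967 CPM at d0, 0.736 and 0.597 at d2, 1.28 and 1.41 at d4. From d6 on they held 1.87 and 0.763 at d6, 1.29 and 1.11 at d8 and 0.778 and 0.402 as iPSCs. The highest K36M library of any stage held 1.87 CPM, and all WT libraries of d6 and d8 lay above it. The log2 difference was -0.34 ± 0.338 at d4, -1.67 ± 0.302 at d6 and -2.78 ± 0.290 at d8. The overlapping antisense gene Gm16989 had 14 counts in all libraries together.

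**Figure D2:**
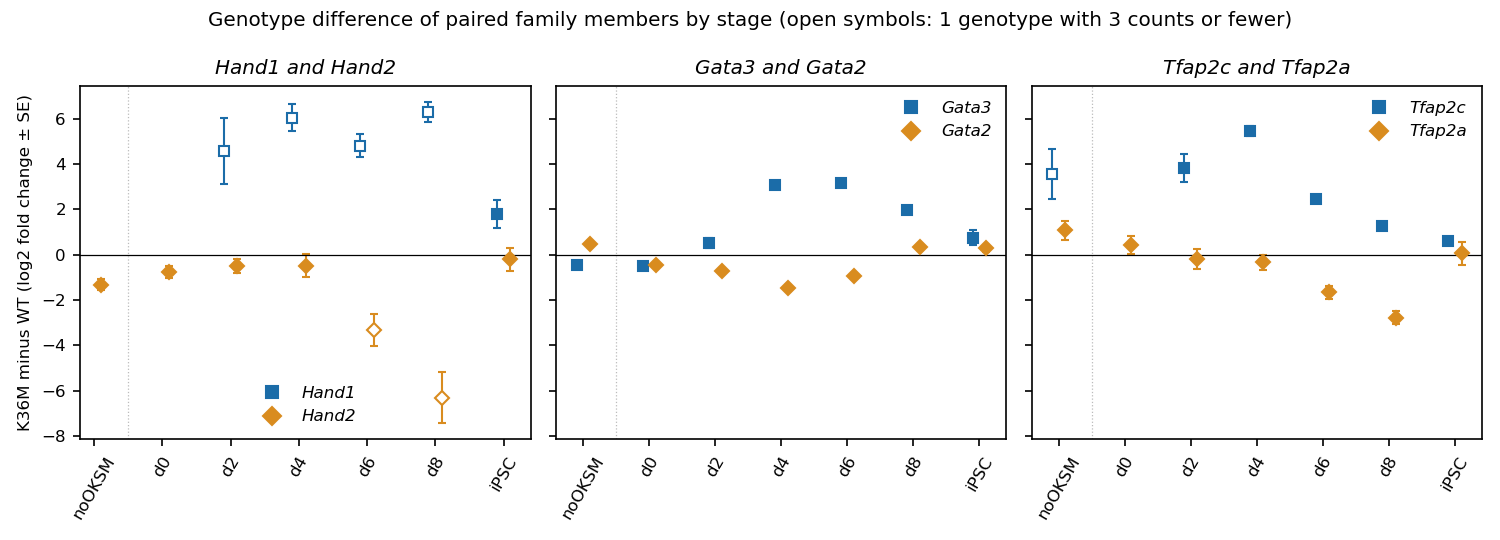
Log2 fold change of K36M against WT (± SE, linear axis) by stage for Hand1 and Hand2, Gata3 and Gata2, and Tfap2c and Tfap2a, with open symbols where 1 genotype had 3 counts or fewer and the fitted value is no bound. At d4 the first gene of each pair is above 0 (Gata3 at 3.08, Tfap2c at 5.45) and the second below it (Gata2 at -1.46, Tfap2a at -0.34).

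Within each pair, one relative made up more of the summed level in K36M intermediates than in WT. Compared per length, in CPM per kilobase of exon, Hand1 made up 87.7% ± 0.361 of the Hand1 and Hand2 total in K36M at d4 and 98.3% ± 2.44 at d6, and at d8, with no Hand2 read, it made up the whole total. The WT values at these stages were 9.14% ± 12.9, 14.2% ± 5.82 and 11.1% ± 2.65. In iPSCs the Hand1 share was 55.4% and 62.7% in K36M and 16.9% and 35.9% in WT, on 16 counts of Hand1 and 13 of Hand2 in K36M and 5 and 17 in WT. Gata3 made up 65.5% ± 1.91 of the Gata3 and Gata2 total in K36M at d4, 70.3% ± 1.37 at d6 and 42.6% ± 2.47 at d8, against 7.55% ± 0.451, 12.3% ± 0.732 and 19.1% ± 2.40 in WT. At d0 the Gata3 share was the same within 1 percentage point, 17.3% ± 0.329 in K36M and 17.8% ± 0.157 in WT. Tfap2c made up 61.4% ± 4.87 of its pair at d2 and 97.1% ± 0.365 at d4 in K36M, against 9.52% ± 13.5 and 38.7% ± 10.4 in WT, and it made up 99.5% ± 0.212 and 99.3% ± 0.107 in iPSCs. These shares rest on the same contrasts that chose the genes and have no test.

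**Figure D3:**
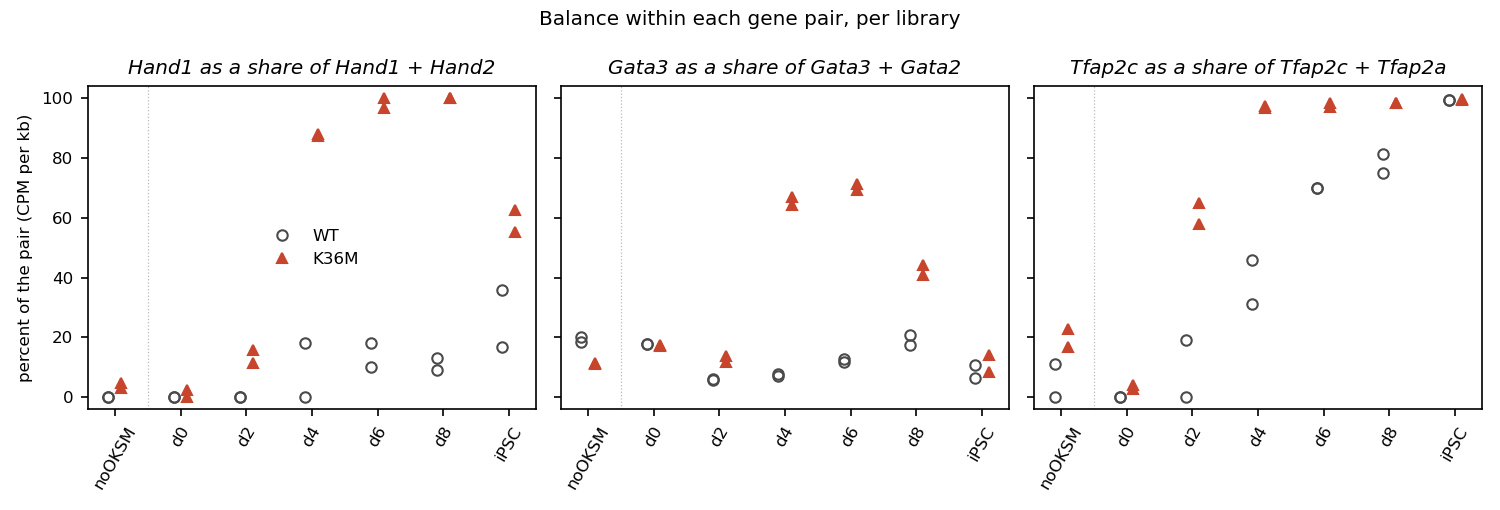
Share of the first gene in the summed level of each pair (percent of CPM per kilobase, axis from 0 to 100) in each library, by stage, with WT as open circles and K36M as triangles. K36M triangles at d4 lie at 87.4 and 87.9 for Hand1, 64.1 and 66.8 for Gata3, and 96.8 and 97.4 for Tfap2c, above every WT circle of that stage.

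K36M MEFs at d0, before any reprogramming, had less Hand2 and Gata2 than WT MEFs. Both K36M libraries were below both WT libraries for each gene, at the levels given above. Hand2 was lower by a log2 difference of -0.76 ± 0.253 (edgeR adjusted p = 0.0446) and Gata2 by -0.43 ± 0.126 (adjusted p = 0.0211), so 2 of 8 genes passed beside 15.9% of all 16932 genes. Gata3 was also lower in both libraries, by -0.49 ± 0.170, short of the threshold (adjusted p = 0.0549), and Tfap2a did not pass (0.43 ± 0.408, adjusted p = 0.528). Hand1, Cdx2, Tfap2c and Ascl2 had 2 counts or fewer in each genotype and could not be compared at this depth. Both calls were lost without K36M d0 replicate 1, without K36M d0 replicate 2 and without WT d0 replicate 1. Hand2, at -0.60 to -0.77 there, had adjusted p of 0.172 to 0.335, and Gata2 of 0.108 to 0.144. The Hand2 call was also lost with no filter (adjusted p = 0.0532) and in DESeq2 (0.103). Summed macrophage markers (5 genes, none at 0) were 41.6 to 46.3 CPM in WT d0 and 12.2 to 12.7 in K36M d0, and their part in these differences was not tested.

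In MEFs without OKSM, Hand2 was again lower in K36M, and Gata2 was higher instead of lower. WT libraries held 3.91 and 4.32 CPM of Hand2 and K36M libraries 1.52 and 1.72, a log2 difference of -1.34 ± 0.242 (edgeR adjusted p = 0.000158). Gata2 was at 22.6 and 21.3 CPM in WT and at 30.4 CPM in both K36M libraries, a difference of 0.47 ± 0.119 (adjusted p = 0.00372). Gata3 was lower at 4.45 and 4.74 CPM against 6.78 and 5.77 (-0.45 ± 0.156, adjusted p = 0.0275). Tfap2c had 14 counts in K36M over both libraries and 1 in WT, a ratio of 15.0 (95% exact counting interval 2.29 to 635, adjusted p = 0.0142). Tfap2a, at 0.932 and 1.03 CPM against 0.629 and 0.282, did not pass (1.07 ± 0.428, adjusted p = 0.0562). It passed with upper quartile scaling (adjusted p = 0.0424), with no filter (0.0246) and without WT noOKSM replicate 1 (0.0329). These 4 calls of 8 stand beside 35.0% of all genes. The Gata3 call was lost without WT noOKSM replicate 1, K36M replicate 1 or K36M replicate 2 (adjusted p = 0.0767 to 0.248), with upper quartile scaling (0.0812) and in DESeq2 (0.0552). The Tfap2c call was lost without WT replicate 1 or K36M replicate 2 (0.114 to 0.130).

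The Gata2 difference at noOKSM differed from that at d0 by 0.90 ± 0.174 on the log2 scale (edgeR adjusted p = 0.000669), and it was the single one of the 8 genes to pass, beside 25.1% of all genes. For Hand2 the difference between the 2 stages was -0.58 ± 0.352 (adjusted p = 0.247), for Gata3 0.04 ± 0.230 (adjusted p = 0.974) and for Tfap2a 0.64 ± 0.596 (adjusted p = 0.479), none of which passed. The other 4 genes had 3 counts or fewer in both genotypes at d0. Fibroblast markers summed to 16400 to 21300 CPM in K36M noOKSM and 25900 to 26100 in K36M d0, against 16000 to 17700 and 19600 to 24000 in WT.

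In passaged iPSCs Tfap2c was higher in K36M, the single one of the 8 genes that passed, beside 1.25% of all genes. K36M exceeded WT by 0.61 ± 0.149 on the log2 scale (edgeR adjusted p = 0.0435), with libraries at the levels given above that did not overlap. Without any 1 of the 4 iPSC libraries the adjusted p was 0.163 to 0.338. Hand1 was higher in both K36M libraries, 0.311 and 0.502 against 0.150 and 0.0828 CPM, but 16 and 5 counts did not pass (1.80 ± 0.625, adjusted p = 0.216). Gata3 (0.75 ± 0.324, adjusted p = 0.425), Gata2 (0.29 ± 0.156, adjusted p = 0.528) and Ascl2 (-0.33 ± 0.250, adjusted p = 0.704) did not pass either. Nor did Hand2, Cdx2 and Tfap2a (adjusted p = 0.945 to 0.995). Relative to d0, the genotype difference in iPSCs was larger by 0.72 ± 0.201 for Gata2 (adjusted p = 0.0283) and by 1.23 ± 0.366 for Gata3 (adjusted p = 0.0394), 2 of 8 genes beside 7.80% of all genes. Neither was called in iPSCs alone, and at d0 alone Gata2 was called lower and Gata3 was not. Without 1 library at a time the Gata2 value was 0.59 to 0.79 where the call was lost (adjusted p = 0.0521 to 0.154), and that of Gata3 0.85 to 1.49 (0.0539 to 0.396).

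Over the WT course, Hand2, Gata3 and Gata2 were lower than at d0 and Ascl2, Tfap2c, Tfap2a and, at d8, Cdx2 were higher. The WT intermediates entered the contrasts that chose the genes, so these differences are described without p-values, and each stage is compared with the same WT d0 libraries. The log2 difference of Hand2 from d0 was -1.31 ± 0.261 (d2), -3.12 ± 0.324 (d4), -2.80 ± 0.322 (d6) and -2.94 ± 0.304 (d8). Gata3 differed from d0 by -1.88 ± 0.193 at d2 and by -0.69 ± 0.167 at d8, and Gata2 by -0.54 ± 0.127 at d6. Tfap2a differed from d0 by 1.02 ± 0.376 at d4, by 2.30 ± 0.339 at d6 and by 3.30 ± 0.314 at d8. Tfap2c, with no count at d0, was at least 14.7-fold higher at d4, 139-fold at d6 and 420-fold at d8. Ascl2 was 21.2-fold (95% exact counting interval 5.61 to 180) higher at d2. Cdx2 had 12 counts at d8 and 0 at d0, at least 2.49-fold higher. The edgeR fit called 3, 5, 6 and 7 of the 8 genes in WT from d2 to d8 in order, beside 57.8%, 57.4%, 59.0% and 64.0% of all genes, and nothing is read from these counts.

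From d0 to iPSC 7 of 8 genes passed in each genotype, Tfap2a being the exception in both, beside 77.5% of all genes in WT and 75.5% in K36M. Hand2, Gata2 and Gata3 fell in both genotypes (edgeR adjusted p at most 2.37e-06). In WT their log2 differences were -3.08 ± 0.332, -2.04 ± 0.141 and -3.28 ± 0.237, and in K36M -2.54 ± 0.374, -1.32 ± 0.141 and -2.04 ± 0.227. Tfap2c was at least 1158-fold higher in WT iPSCs and 3068-fold higher in K36M iPSCs (95% exact counting interval 849 to 25337). Ascl2 was 76.7-fold (20.9 to 638) and 140-fold (24.6 to 5556) higher. Hand1 and Cdx2 rose from 0 to 5 and from 0 to 4 counts in WT (adjusted p = 0.0172 and 0.0470) and from 1 to 16 and from 0 to 4 in K36M (adjusted p = 0.000407 and 0.0317), so these calls rest on few reads. Cdx2 lost its call without filter in both genotypes (adjusted p = 0.0823 in WT and 0.0549 in K36M) and without any 1 library. Hand1 in WT lost it without either WT d0 library or WT iPSC replicate 1 (0.0702 to 0.0814). Tfap2a did not pass in either genotype (adjusted p = 0.276 and 0.0552), but passed as lower in K36M iPSCs with no filter (adjusted p = 0.0229) and without K36M iPSC replicate 1 (0.0295).

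The genes whose group means followed Hand1 most closely were Tns4 (Pearson r = 0.982 of log2(CPM + 1) over 14 groups), Otog (0.966), Slc13a4 (0.964), Serpina3m (0.960) and Tie1 (0.958), among 11517 genes that reached 5 CPM in a group. Like Hand1, Tns4, a tensin of epithelial adhesions, was highest in K36M at d8, at 33.4 CPM against 0.768 in WT d8, and low in iPSCs of both genotypes (1.02 and 1.44 CPM). Cdx2 was followed most closely by Krt5, a keratin of basal epithelium (r = 0.979), and Grid2ip (0.970), both highest in K36M at d4 or d6. Tfap2c was followed by Sall4 (0.992) and Zscan10 (0.989), which are expressed in pluripotent cells. Gata3 was followed by Krt80 (0.928) and Sccpdh (0.905), and Ascl2 by Cdkn2aipnl (0.979) and Trmt5 (0.977). Hand2 was followed by Psmd5 (0.987) and Mamld1 (0.978), Gata2 by F3 (0.929) and Cdkn2c (0.913), and Tfap2a by Pcx (0.907) and Kcnk3 (0.882). The groups share genotypes and stages, so these values describe likeness and have no p. With a pseudocount of 0.1, 4 of the 5 genes named for Hand1 stayed the nearest and none of those named for Hand2, Cdx2 or Ascl2. With Spearman's coefficient 1 of 5 stayed for Hand1.

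Other trophoblast stem cell genes were more often higher than lower in K36M intermediates, among them keratins and placental homeobox genes. Of 14 listed genes, 6 were higher and 1 lower at d2, beside 9.74% and 10.4% of all genes. Of the same list 8 were higher and 3 lower at d4, 10 and 3 at d6, and 10 and 1 at d8, against 27.1% and 25.8%, 37.3% and 33.7%, and 31.6% and 29.0% of all genes. The median log2 difference of the list was 2.35 at d4 and 1.97 at d8, against 0.02 and 0.04 over all genes. Krt8, a keratin of simple epithelia, was at 347 ± 13.0 CPM in K36M and 7.94 ± 0.429 in WT at d4 (a log2 difference of 5.44 ± 0.122), and Krt7 at 99.0 ± 8.00 and 2.39 ± 0.145 CPM at d8 (5.38 ± 0.178). Esx1, a homeobox gene of the placenta on the X chromosome, had 113 counts in K36M and 0 in WT at d4. Its highest levels were in iPSCs of both genotypes, at 6.36 ± 0.568 CPM in WT and 5.82 ± 0.00688 in K36M. Rhox6, of the X-linked placental homeobox cluster, was at 20.2 ± 0.0925 CPM in K36M and 1.07 ± 0.229 in WT at d8. Bmp4, a signal made by the extraembryonic ectoderm, was lower in K36M at d4, 0.527 ± 0.119 against 9.39 ± 0.983 CPM (-4.13 ± 0.333).

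At the stages that did not enter the choice of the 8 genes, keratins differed too. The lists were chosen with earlier results of these data known, so their values are not independent of that choice. In noOKSM MEFs Krt8 was at 93.6 ± 5.70 CPM in K36M and 0.487 ± 0.0035 in WT (7.57 ± 0.164, edgeR adjusted p = 2.87e-19) and Krt7 at 139 ± 17.5 and 5.20 ± 0.688. Id2, an inhibitor of basic helix-loop-helix factors, was lower (-1.32 ± 0.123). At that stage 4 of 14 genes were higher and 2 lower, beside 18.2% and 16.7% of all genes. At d0 Krt8 (3.68 ± 0.180) and Krt7 (1.10 ± 0.190) were higher and Id2 (-1.58 ± 0.129) and Bmp4 (-0.86 ± 0.213) lower, among 3 higher and 3 lower, beside 7.6% and 8.31% of all genes. In iPSCs Rhox6 (1.14 ± 0.249), Fgfr2 (0.74 ± 0.132), Krt8 (0.59 ± 0.108) and Krt18 (0.55 ± 0.131) were higher and none lower, beside 0.756% and 0.490% of all genes.

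Hormone and spongiotrophoblast genes of the mature placenta had almost no reads, while Gcm1 and Flt1 were higher in K36M from d4 to d8. At d2 Flt1 was lower in K36M (-0.76 ± 0.187), and Gcm1 had 3 counts or fewer in each genotype. Of 13 placental differentiation genes 7 passed the filter, and the others included Prl3d1, a hormone of giant cells, with at most 4 counts in any group, and Tpbpa, of the spongiotrophoblast, with at most 2. Among the 7, 0 were higher and 2 lower in K36M at d2, beside 9.74% and 10.4% of all genes. At d4 4 were higher and 1 lower, at d6 3 and 2, and at d8 5 and 1. The shares of all genes at these stages were 27.1% and 25.8%, 37.3% and 33.7%, and 31.6% and 29.0%. The median log2 difference of the 7 genes at d8 was 1.87, against 0.04 over all genes. Gcm1, the factor of labyrinth syncytiotrophoblast, had 49 counts in K36M and 1 in WT at d4 and was at 3.71 ± 0.160 against 0.277 ± 0.216 CPM at d8 (3.58 ± 0.406). Flt1, a VEGF receptor made by placenta and endothelium, was at 51.4 ± 4.72 and 5.14 ± 0.124 CPM at d8. Its level was higher still in the starting MEFs, at 165 ± 15.8 CPM in WT d0 and 145 ± 2.36 in K36M d0. Pparg was lower in K36M at d0 (-0.79 ± 0.212), d4, d8 and noOKSM (-1.40 ± 0.216).

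Other relatives of the 8 factors were more often higher than lower in K36M intermediates. Of 12 paralogs found among the counted genes 7 passed the filter. Of these, 4 were higher and 1 lower at d4, 5 and 0 at d6, and 6 and 0 at d8, against 27.1% and 25.8%, 37.3% and 33.7%, and 31.6% and 29.0% of all genes. Cdx1 at d8 was at 6.99 ± 0.793 CPM against 0.377 ± 0.229 (4.31 ± 0.509) and Gata1 at 1.35 ± 0.196 against 0.184 ± 0.0327 (2.87 ± 0.465). At d0 Gata6 (-1.05 ± 0.170) was lower. Partners and cofactors showed no common direction, 5 of 12 being higher and 4 lower at d4 and 4 and 4 at d8, beside the same shares of all genes. Zfpm2, which binds GATA factors, was at 1.76 ± 0.296 CPM against 8.58 ± 1.55 at d4 (-2.30 ± 0.212), and Zfpm1, its relative, at 31.0 ± 1.24 against 10.9 ± 0.174 at d8 (1.51 ± 0.135). Cited2, a coactivator of AP-2 factors, was lower in K36M at d0 (-0.41 ± 0.124), d4 (-2.55 ± 0.146) and noOKSM (-2.28 ± 0.130). At d8 Cited2 was higher in K36M instead, at 29.3 ± 3.19 against 23.3 ± 2.24 CPM.

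Lists for the other tissues of these factors split by gene, and their counts stand beside 27.1% higher and 25.8% lower of all genes at d4 and 31.6% and 29.0% at d8. Surface ectoderm and neural crest genes, the setting of Tfap2a, were higher in 6 of 11 and lower in 1 at d4 and in 7 and 1 at d8. Grhl2, a factor of epithelial identity, was at 33.3 ± 0.228 CPM against 0.206 ± 0.0669 at d4 (7.22 ± 0.248). The neural crest gene Pax3 was the 1 lower gene at d8 (-2.87 ± 0.387). Foxd3 (1.81 ± 0.391) and Sox10 of the same list were higher at d8. In iPSCs Grhl2 was at 31.7 ± 0.875 CPM in K36M and 30.5 ± 0.313 in WT. Lateral mesoderm and heart genes, the setting of Hand1 and Hand2, were higher in 3 of 11 and lower in 4 at d4, and 6 and 4 at d8. Mef2c, a factor of muscle and heart, was at 0.169 ± 0.171 CPM against 14.5 ± 0.735 at d8 (-6.38 ± 0.353). Tbx20, among the 6 higher genes at d8, was at 2.43 ± 0.155 against 1.04 ± 0.0559 CPM (1.22 ± 0.238). Posterior and primitive streak genes, the setting of Cdx2, gave 3 of 7 higher and 2 lower at d4 and 3 and 3 at d8. T (brachyury) was at 13.1 ± 1.14 CPM against 1.73 ± 0.132 at d8 (2.92 ± 0.285) and Hoxa9 at 0.385 ± 0.0657 against 11.2 ± 0.0215 (-4.84 ± 0.272). Blood and endothelial genes, the setting of Gata2, gave 2 of 8 higher and 4 lower at d8, with Runx1 lower (-1.54 ± 0.126) and Pecam1 higher (2.72 ± 0.194). Among sympathetic neuron genes, the setting of Hand2 and Gata3, Phox2a was higher in K36M at d8 (0.52 ± 0.152). In iPSCs none of the genes of these 5 lists passed in edgeR.

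**Figure D4:**
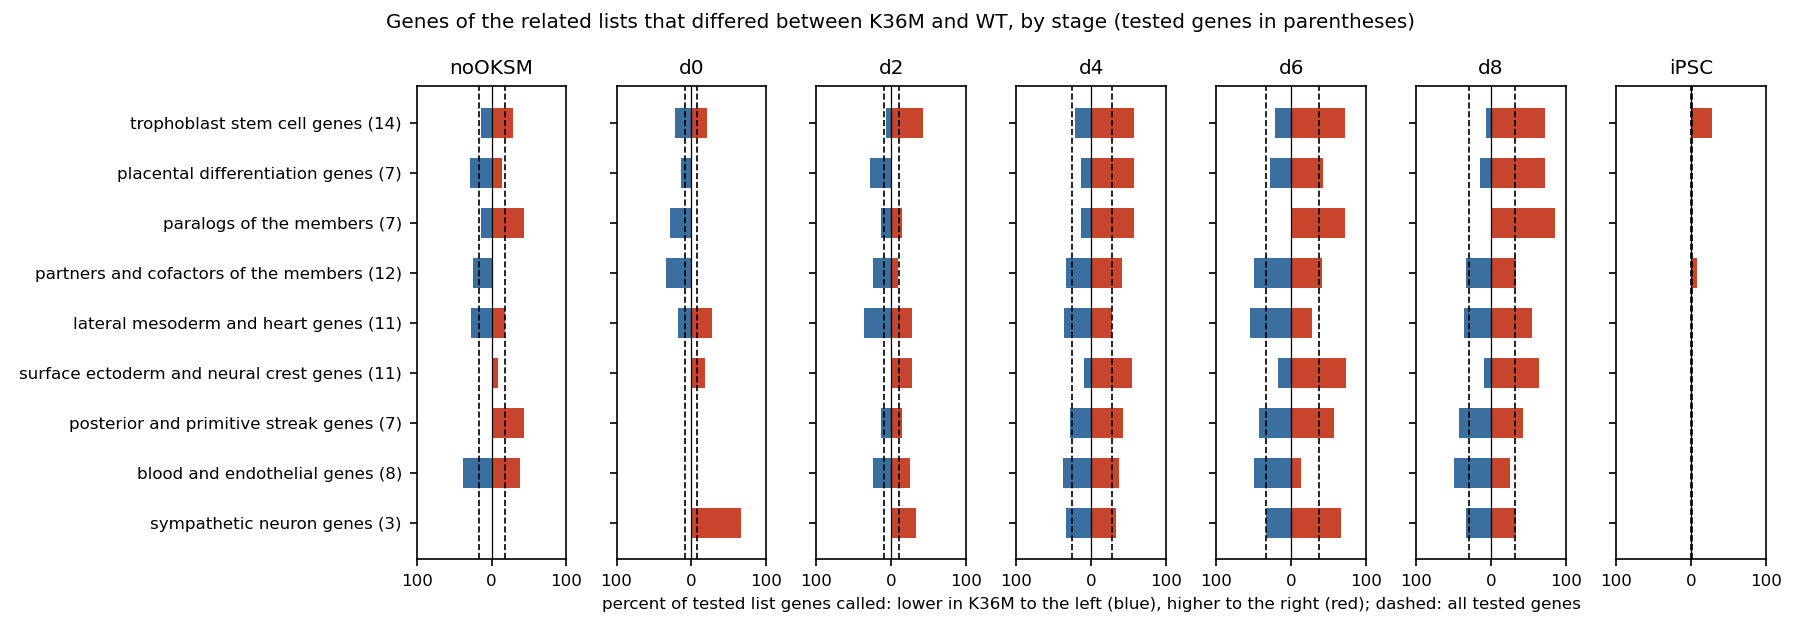
Percent of tested genes of 9 related lists that differed between K36M and WT at each stage (lower in K36M to the left, higher to the right, both from 0), with dashed lines for the percent over all tested genes. All lists except lateral mesoderm and heart genes and blood and endothelial genes extend past the right dashed line at d4, d6 and d8. Partners and cofactors, posterior genes, lateral mesoderm and heart genes, and blood and endothelial genes extend past the left one at each of these stages. In iPSCs bars appear for trophoblast stem cell genes and for partners and cofactors.

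Markers of other cell states differed between the genotypes at the same stages. Summed epithelial markers (Cdh1, Epcam, Cldn6 and Esrp1, none at 0 from d2 on) were 37.0 to 42.2 CPM in K36M and 2.61 to 2.93 in WT at d2, 1390 to 1410 and 35.1 to 37.5 at d4. At d8 they were 1750 to 1770 and 646 to 711. Summed pluripotency markers (6 genes, Zfp42 at 0 in WT d4) were 105 to 107 and 0.637 to 0.730 CPM at d4, 520 to 1060 and 16.2 to 18.5 at d6. Later they were 969 to 976 and 179 at d8, and 3450 to 3770 and 3380 to 3510 in iPSCs. Summed fibroblast markers (6 genes, none at 0) were 311 to 321 CPM in K36M and 1380 to 1600 in WT at d4, and 79.4 to 94.6 and 1810 to 1920 at d8. The part of these states in the differences of the 8 genes was not tested.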

How the data were processed

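Poly(A) RNA-seq libraries (a directional NEBNext kit and an Illumina HiSeq instrument, per the labels' protocols) were deposited by the authors as 1 table of raw counts, whole reads per gene. The submitters' processing notes name mm9 and the tools HTSeq 0.11.2, STAR 2.5.0 and edgeR. The strand setting, the annotation and the treatment of reads with several matches were not given in the sources used here. Columns were matched to samples by name, with 0 columns not used. GENCODE vM1 held 37205 of the 37620 gene IDs and gave the mm9 coordinates and exon lengths.

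Counts were fitted in R 4.3.3 with edgeR 4.0.16 (TMM scaling, filterByExpr with a minimum count of 10 and a minimum total of 15, robust quasi-likelihood test). A model of all 14 groups covered 16932 genes with 14 residual degrees of freedom; a second model, of d2 to d8 alone (16 libraries) and with a term for day, covered 15954 genes with 11. Two-sided p-values were adjusted over all genes tested (Benjamini-Hochberg), with a threshold of 0.05. SE is the log2 fold change divided by the root of the F statistic. CPM values are relative to the TMM-scaled library size, and CPM per kilobase divides by the merged exon length. Where a group had 0 counts the fold is a bound against a floor of 3 counts over the group, and with 1 to 3 counts it is a ratio with a 95% exact interval that covers counting error only. On simulated counts of the d0 comparison (16795 genes), 95% of 100 genes changed by a log2 of 1 and 100% of 100 changed by 2 were recovered, with 15 unchanged genes called. The changed genes were drawn from those above 1 CPM in WT d0. Hand1, Cdx2, Tfap2a, Tfap2c and Ascl2 lay below that level there, so this recovery does not cover them.

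The 8 genes and the 9 gene lists were chosen with earlier results of these data known. Of each list, the text names among the up to 4 genes per contrast with the largest change that passed and had a mean of at least 1 CPM in a group, plus the spongiotrophoblast and giant cell genes Tpbpa and Prl3d1, chosen after their values were seen. Some genes that this rule names are not reported here. For likeness of pattern, the nearest 5 genes are named for Hand1 and the nearest 2 for each other gene, predicted and ribosomal protein names left out. Alternatives were RLE and upper quartile scaling, no filter, DESeq2 1.42.0, a replicate block, and leaving out each library in turn; leaving out d6 was added after the data were seen, because its K36M replicates differed most.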

Additional observations from a re-analysis of the deposited data

Results flagged for a closer look

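The genotype difference of Gata2 was -0.43 at d0 and 0.47 at noOKSM on the log2 scale, and the difference between them, 0.90, passed an interaction test (edgeR adjusted p = 0.000669). Under the alternatives, among them leaving out 1 library at a time, this difference ran from 0.85 to 0.99. The noOKSM and d0 libraries differ in library series, and the medium of the noOKSM cells is not stated. Library series and culture conditions therefore cannot be told apart here. Between d0 and iPSC the interaction was 0.72 for Gata2 (adjusted p = 0.0283) and 1.23 for Gata3 (adjusted p = 0.0394).

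Opposite directions in all libraries of 2 stages were seen in 4 more cases whose difference was not tested. Gata2 was higher in K36M at noOKSM and lower at d4, a difference of 1.93 on the log2 scale. Gata3 was higher in both K36M libraries at d6 and lower in both at d0, a difference of 3.64, and the d0 value did not pass (adjusted p = 0.0549). Tfap2a was higher in both K36M libraries at noOKSM and lower in both at d8, a difference of 3.84, and the noOKSM value did not pass (adjusted p = 0.0562). Ascl2 was higher in both K36M libraries at d6 and lower in both in iPSCs, a difference of 2.90, and the iPSC value did not pass (edgeR adjusted p = 0.704). The d4, d6 and d8 values are among those that chose the genes.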

How the results depend on the processing

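Over all contrasts, 1013 of 1099 values of the 8 genes under an alternative kept their direction and their side of the threshold, 65 lost the call, 7 gained it and 14 changed sign. With no filter, 447 genes passed in iPSCs, and 319 in DESeq2, against 211; Hand2 lost its call at d0 and Gata3 its iPSC against d0 interaction, so 1 of the 8 genes passed in each of these contrasts under each of these settings. The main fits did not pair the samples by replicate number. The correlation of same-numbered deviations ran from -0.317 at d0 to 0.513 at noOKSM over 10961 genes. These mixed signs do not settle whether the numbers pair the samples. With a replicate block Gata3 passed at d0 (-0.49, edgeR adjusted p = 0.0443), and the block changed no other call of the 8 genes. Leaving out 1 library at a time, where a lone sample is assumed to vary like the other groups, gave 1200 to 2754 genes at d0 (0 to 2 of the 8), 2097 to 2253 at d2 (2 to 3 of the 8), 55 to 251 in iPSCs (0 of the 8), 2 to 4 of the 8 at noOKSM, 2301 to 4788 genes for the noOKSM against d0 interaction and 694 to 1579 for that of iPSC (0 to 2 of the 8). Signs changed only in values that had not passed. With 1 library left out, the K36M difference in iPSCs was -0.87 to 0.23 for Hand2 and -0.49 to 0.46 for Tfap2a, at noOKSM -4.18 to 0.28 for Ascl2, and at d2 -0.46 to 0.13 for Tfap2a; WT d2 against d0 was -0.44 to 0.15 for Tfap2a and 0.0 to 4.95 for Tfap2c; the iPSC against d0 interaction was -0.11 to 0.99 for Hand2 and -0.92 to 0.023 for Tfap2a. For Gata3 the noOKSM against d0 interaction was -0.077 to 0.16, and -0.0027 with no filter. The cause of these changes was not tested. Depth limits Hand1, Cdx2, Tfap2c and Ascl2 at d0, where each had 2 counts or fewer per genotype.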
